A study of Homo sapiens with 4 samples.

Results

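The genes described here are 9 that the transcription factor p53 is known to switch on: CDKN1A, MDM2, GDF15, BAX, BBC3, FAS, TNFRSF10B, ZMAT3 and RRM2B. They were taken by symbol from a count table of 26364 gene symbols, and all 9 had a row. The gene of p53 itself is not among them. The table came from HCT116, a human colorectal carcinoma line. Cytoplasmic extract of the wild type and of a line labelled Dicer1 knockout was run on sucrose gradients, which sort mRNAs by the number of ribosomes they carry. Each of the 2 gradients gave a heavy library, with mRNAs on 10 or more ribosomes, and a light library, with mRNAs on 9 or fewer. Each of the 4 groups thus had 1 library, and the labels do not say how the gene was disrupted or whether the cells were 1 clone.

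p53 is held at a low level in unstressed cells by MDM2, a ubiquitin ligase that is itself a p53 target, so the pathway is a feedback loop. When DNA is damaged, p53 accumulates and raises genes that stop the cell cycle, repair DNA or start apoptosis. HCT116 is widely used to study this pathway because it is known to carry a functional p53 gene. Dicer cuts microRNA precursors into mature microRNAs, which pair through their seed, bases 2 to 8, with sites in 3′ UTRs and lower the stability or translation of the mRNA. CDKN1A is a textbook target of the miR-17 seed family, and BBC3 is a published target of miR-221.

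Those pairings are shown here because the genotype comparison concerns the enzyme that makes microRNAs. The mature sequences are from RefSeq (GRCh38.p14), written 5′ to 3′, and capitals mark the seed. The first 4 share 1 seed.

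hsa-miR-17-5p: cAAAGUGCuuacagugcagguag
hsa-miR-20a-5p: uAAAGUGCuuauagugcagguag
hsa-miR-93-5p: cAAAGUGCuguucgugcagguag
hsa-miR-106b-5p: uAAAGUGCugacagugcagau
hsa-miR-221-3p: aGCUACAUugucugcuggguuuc

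In the GENCODE release 44 transcripts, the 7 bases that pair with the miR-17 seed occurred in the 3′ UTRs of CDKN1A (2 sites), FAS, TNFRSF10B and ZMAT3. The 7 bases that pair with the miR-221 seed occurred in those of BBC3, MDM2 and RRM2B. Windows of 30 bases around the sites follow for CDKN1A, FAS and BBC3, read on the strand of the mRNA, with the site in capitals. They lie at chr6:36686256-36686285 and chr6:36686936-36686965 (plus strand), chr10:89017015-89017044 (plus strand) and chr19:47221689-47221718 (minus strand) of GRCh38.

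CDKN1A site 1: agtaaacagatgGCACTTTgaaggggcctc
CDKN1A site 2: ccccagttcattGCACTTTgattagcagcg
FAS: taattttcctcaGCACTTTaaaaatattaa
BBC3: tttctctgcaccATGTAGCatactggactc

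The miR-17 site was present in 24.8% of 12512 protein-coding 3′ UTRs of tested genes and the miR-221 site in 9.20%. Over 16 microRNA families, the number with at least 1 site ran from 0 for GDF15 and BAX, whose 3′ UTRs are the shortest of the 9 (241 and 162 nucleotides), to 11 for TNFRSF10B (2538 nucleotides). The longest 3′ UTR, that of ZMAT3 (7794 nucleotides), held sites of 7 families. A match of 7 bases is a description of the sequence, and microRNA levels were not analysed here. In the promoter windows of RefSeq, 250 bases before to 50 after the gene start, 0 of the 7 members with an entry held the p53 half-site motif, against 5.95% of 15077 promoters of protein-coding genes. Only exact matches to the 10-base motif were counted, so a site that departs from it would be missed. The count says only that no exact match is within these windows.

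Library totals ran from 17457116 to 20933675 counts. Levels below are CPM, the usual per-library scaling of counts, with TMM-adjusted library sizes, which corrects for differences in composition between libraries. The gene DICER1 itself had 500 (heavy) and 547 (light) counts in the wild type, against 925 (heavy) and 889 (light) where the label says knockout, so its mRNA goes against a loss of the transcript, and the name "labelled knockout" is kept. Of 10 epithelial markers, 9 had at least 50 counts in each library (VIL1 was at 0), and of 20 markers of fibroblasts, endothelium and blood, COL1A1 and CD68 did. The summed level of the latter 20 was 27.9 to 64.0 CPM on unscaled library totals, with DCN, LUM, PTPRC, CD3E and MS4A1 at 0.

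The first comparison set the level of each mRNA in heavy polysomes against that in light ones. Levels are relative to the other mRNAs of the same library, so the ratio does not say where most copies of an mRNA lay. Of the 9 members, 6 were called toward light polysomes (BAX, BBC3, FAS, MDM2, RRM2B and ZMAT3) and GDF15 alone toward heavy ones. A gene was called at a Benjamini-Hochberg adjusted p under 0.05 in edgeR's quasi-likelihood test over 13574 genes, with the gradient as a block. Over all those genes the calls for light polysomes came to 29.3% and those for heavy ones to 30.0%. The members' log2 heavy to light ratios had a median of -0.68, against -0.07 over all genes. With library totals in place of TMM, 38.9% of all called genes lay toward heavy polysomes instead of 50.6%, the median of all genes moved to -0.30, and CDKN1A was called too. Without the gradient as a block, 3 members were called toward light, and BBC3, FAS and RRM2B lost their call. Over all 13574 genes the calls toward light then came to 2183 instead of 3977. The 2 gradients serve as replicates here, so that the spread is that between the genotypes, with 1 residual degree of freedom. The edgeR test shares information on spread across genes, so a p-value does not measure the spread of its own gene alone. BAX, with gradient ratios of -1.03 and -1.04, had an SE of 0.27. GDF15, with 2.30 and 1.03, had an SE of 0.33.

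**Figure D1:**
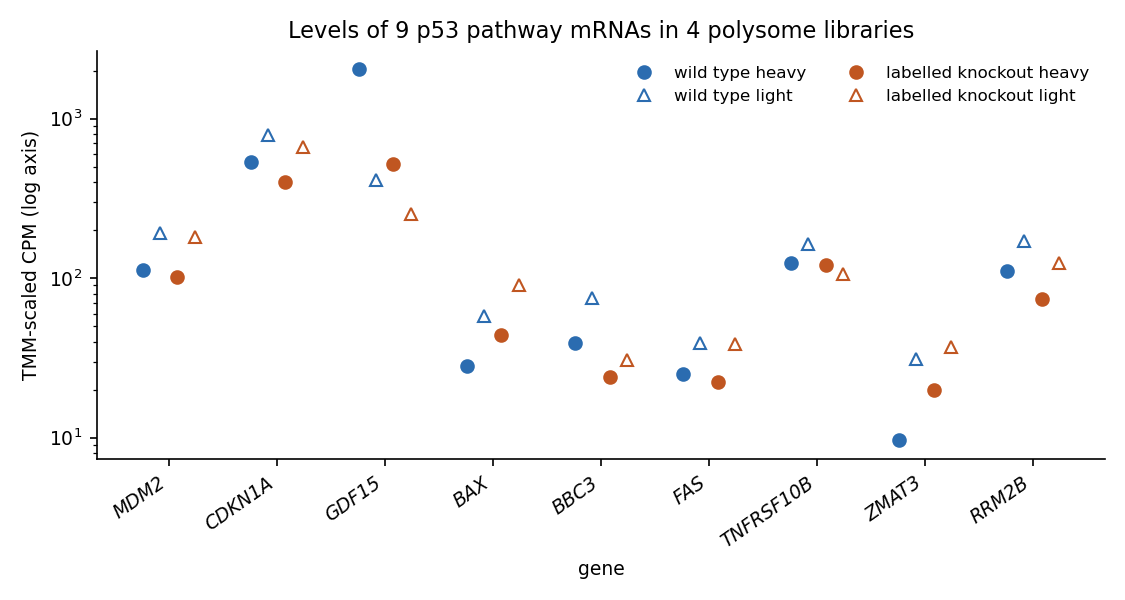
TMM-scaled CPM (log axis) of the 9 genes in each of the 4 libraries; circles are heavy and triangles light polysomes, blue is the wild type and orange the labelled knockout, and each point is 1 library. In both gradients GDF15 is higher in the heavy library, and TNFRSF10B changes its order between the gradients.

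MDM2, the ligase that closes the feedback loop, lies on chromosome 12 from 68808177 to 68845544 (plus strand, GRCh38). In heavy polysomes its level was 112 CPM for the wild type and 102 for the labelled knockout, and in light polysomes 192 and 182. Both light libraries were above both heavy ones. The fitted log2 heavy to light ratio was -0.81 (SE 0.28, edgeR adjusted p = 0.00966, 2 gradients). Exons of MDM2 share 9.45% of their length with a gene on the opposite strand, and the strand setting of the counting is not given in the sources used here.

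CDKN1A encodes p21, which inhibits cyclin-dependent kinases and halts cells before DNA replication. The gene lies on chromosome 6 from 36676460 to 36687337 (plus strand). In heavy polysomes it stood at 531 CPM (wild type) and 403 (labelled knockout), and in light ones at 785 and 666. The light libraries were again both above the heavy ones. The ratio of -0.65 (SE 0.32) did not pass edgeR's test (adjusted p = 0.0661). The exons overlap those of DINOL, a noncoding RNA transcribed from the other strand, in 4.87% of their bases.

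GDF15, a secreted cytokine of the TGF-beta superfamily that is raised by cellular stress, was the member called toward heavy polysomes. It lies on chromosome 19 from 18374731 to 18389176 (plus strand). Wild type cells had 2036 CPM in the heavy and 414 in the light library, and the labelled knockout 517 and 253. The heavy library was above the light one in each gradient. The fitted ratio was 1.66 (SE 0.33, edgeR adjusted p = 3.75e-06). By gradient it was 2.30 (95% counting interval 2.26 to 2.33) for the wild type and 1.03 (0.98 to 1.08) for the labelled knockout.

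BAX and BBC3 act at the mitochondrion. BAX forms pores in the outer membrane, and BBC3, known as PUMA, neutralises the BCL2-type proteins that hold BAX in check. Both lie on chromosome 19, BAX from 48954815 to 48961798 (plus strand) and BBC3 from 47220822 to 47232766 (minus strand). BAX had 28.3 CPM (heavy) and 57.7 (light) in the wild type, then 44.2 (heavy) and 91.0 (light) in the labelled knockout. Its ratio was nearly the same in both gradients, -1.03 and -1.04, and the fitted value was -1.03 (SE 0.27, edgeR adjusted p = 0.000352). BBC3 had 39.1 (heavy) and 75.3 (light) CPM for the wild type and 24.1 and 30.9 for the labelled knockout. Its light library was above its heavy one in each gradient, by 1.93-fold for the wild type and 1.28-fold for the labelled knockout. The fitted ratio of BBC3 was -0.66 (SE 0.26, edgeR adjusted p = 0.0230), and DESeq2 did not call it (adjusted p = 0.0789).

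FAS and TNFRSF10B are death receptors of the cell surface, for FAS ligand and for TRAIL. FAS lies on chromosome 10 from 88953813 to 89029605 (plus strand) and TNFRSF10B on chromosome 8 from 23020133 to 23069031 (minus strand). FAS had 25.2 CPM (heavy) and 39.2 (light) in the wild type, then 22.3 and 38.9 in the labelled knockout. It was called toward light polysomes at -0.72 (SE 0.26, edgeR adjusted p = 0.0108). TNFRSF10B had 125 (heavy) and 163 (light) CPM for the wild type and 122 and 106 for the labelled knockout, so that the light library was the higher one only in the wild type. Its fitted ratio of -0.10 (SE 0.28) did not pass the test (edgeR adjusted p = 0.784). Exons on the opposite strand overlap 6.48% of the exonic length of FAS and 7.53% of that of TNFRSF10B.

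ZMAT3, an RNA-binding zinc finger protein, and RRM2B, a p53-inducible small subunit of ribonucleotide reductase that supplies DNA precursors outside S phase, both lay toward light polysomes. ZMAT3 is on chromosome 3 from 178960121 to 179072215 (minus strand) and RRM2B on chromosome 8 from 102204502 to 102238961 (minus strand). ZMAT3 had 9.62 CPM (heavy) and 31.0 (light) in the wild type, then 19.8 and 37.0 in the labelled knockout. Its wild type heavy value rests on 182 counts, the fewest behind any value of the 9. The fitted ratio was -1.28 (SE 0.26, edgeR adjusted p = 5.57e-06). By gradient it was -1.68 in wild type and -0.90 in labelled knockout cells, so that in the latter BAX, at -1.04, was lower. RRM2B had 111 (heavy) and 172 (light) CPM for the wild type and 74.5 and 124 for the labelled knockout, with a fitted ratio of -0.68 (SE 0.28, edgeR adjusted p = 0.0266). With no filter on low counts RRM2B was not called (edgeR adjusted p = 0.0561).

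**Figure D2:**
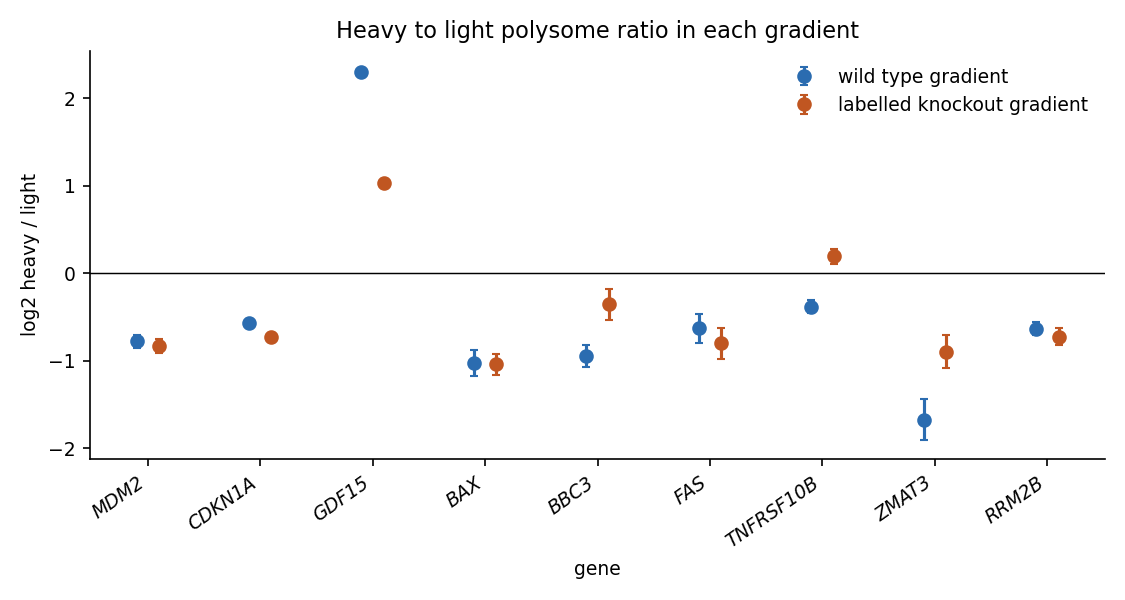
Log2 ratio of heavy to light polysomes for each gene in the wild type (blue) and labelled knockout (orange) gradient; points are single gradients and bars are 95% counting intervals. GDF15 lies above 0 in both gradients, 7 genes lie below 0 in both, and TNFRSF10B lies at -0.38 for the wild type and 0.19 for the labelled knockout.

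Longer coding sequences have room for more ribosomes, so each member was set beside genes of like coding length. The 9 coding sequences ran from 495 nucleotides for CDKN1A (164 amino acids) to 1494 for MDM2 (497 amino acids). Quartiles were taken over protein-coding genes that reached 50 counts in all 4 libraries, and the values are a description with no test. In the wild type gradient 7 members lay below the median of their length class, all but CDKN1A and GDF15. In the labelled knockout gradient 5 did, all but CDKN1A, GDF15, BBC3 and TNFRSF10B.

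GDF15, with 927 coding nucleotides, stood furthest from its class. Of 2414 other genes with coding sequences of 500 to 1000 nucleotides, 99.9% had a lower ratio for the wild type and 98.5% for the labelled knockout. The class medians were -0.47 and -0.51. MDM2 was at the other side: 21.6% of 2407 genes of 1000 to 1500 nucleotides lay below it for the wild type and 7.06% for the labelled knockout, with class medians of 0.07 and 0.08. FAS and RRM2B, in the same class, exceeded 27.1% and 27.1% of it for the wild type and 8.02% and 10.9% for the labelled knockout. ZMAT3 exceeded 3.60% of its class for the wild type and 23.5% for the labelled knockout. CDKN1A lies at the upper edge of its class of up to 500 nucleotides, where it exceeded 86.9% and 84.8% of 848 genes. Among the 500 genes nearest to it in coding length it exceeded 67.4% and 66.2%.

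**Figure D3:**
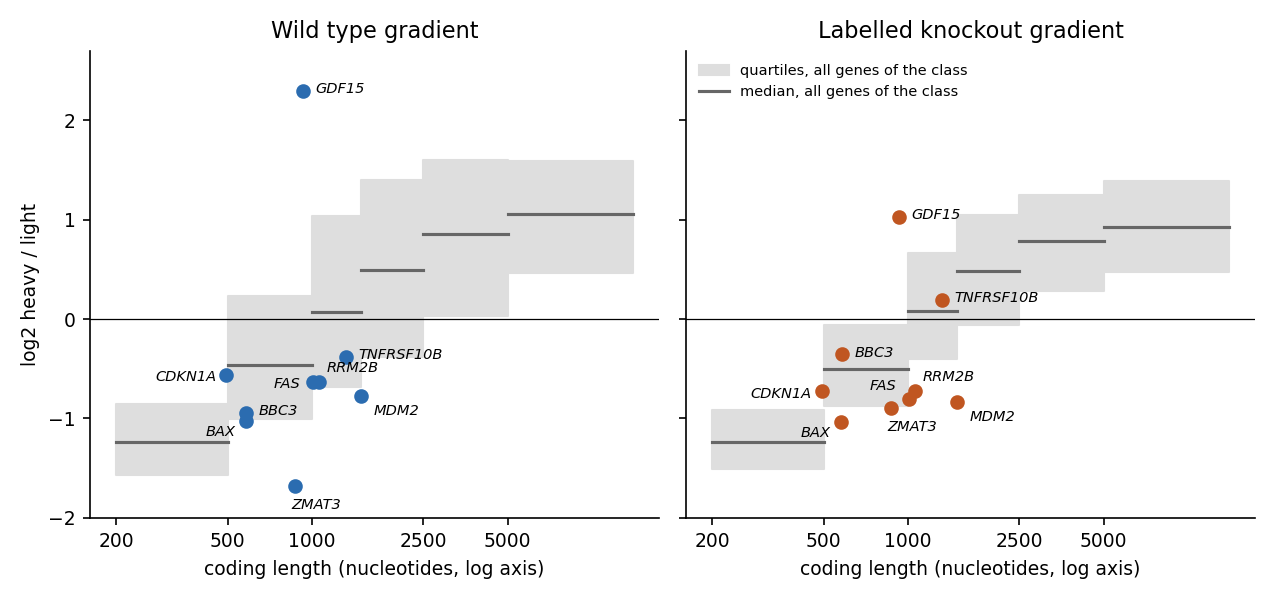
Log2 heavy to light ratio against coding length (log axis) in each gradient; points are the 9 genes, grey boxes are the quartiles and lines the medians of all protein-coding genes in 6 length classes, the outermost of which are drawn with arbitrary outer ends. GDF15 is far above its class in both panels, and MDM2, FAS and RRM2B are below their class median of 0.07 and 0.08.

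The second comparison was between genotypes, made separately in heavy and in light polysomes. GDF15 was 3.94-fold lower in the heavy library of the labelled knockout, BBC3 was 2.43-fold lower in the light one, and ZMAT3 was 2.05-fold higher in the heavy one. With 1 library on each side there is no replicate check and no p-value. Intervals are 95% counting intervals, and in bulk libraries a lower level per cell and fewer cells with the mRNA cannot be told apart. None of the 9 was 2-fold or more higher, or 2-fold or more lower, in both fractions. Of 10418 genes for which 1 library or more of each pair reached 100 counts, 1.17% were higher and 1.20% lower by that measure.

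Counting intervals lay below 0 in both fractions for 5 members (CDKN1A, MDM2, GDF15, BBC3 and RRM2B) and above 0 in both for BAX and ZMAT3. The share of all genes with intervals clear of 0 was not computed, so these counts have no background to be read against. By the sign of the ratio alone, 31.9% of all 10418 genes lay below 0 in both fractions and 30.8% above 0 in both. With TMM scaling 7 and 2 members did, but the 7 include FAS and TNFRSF10B, whose sign changed with the scaling in light and in heavy polysomes, respectively. The place of MDM2 also rests on the scaling: its values ran from -0.17 to -0.08 in heavy and from -0.16 to -0.03 in light polysomes.

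The GDF15 value, as log2 of labelled knockout over wild type, was -1.98 (interval -2.01 to -1.95) in heavy and -0.71 (-0.76 to -0.66) in light polysomes. Of all genes, 2.37% were at least 2-fold lower in the heavy pair. CDKN1A stood at -0.40 (-0.44 to -0.36) and -0.24 (-0.27 to -0.20). MDM2 stood at -0.14 (-0.23 to -0.05) and -0.08 (-0.14 to -0.01), close to the all-gene medians of -0.02 and 0.00.

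The mitochondrial pair went in opposite directions. BAX was higher in the labelled knockout by 0.64 (0.48 to 0.80) in heavy and 0.66 (0.55 to 0.76) in light polysomes. BBC3 was lower, at -0.70 (-0.87 to -0.53) in heavy and -1.28 (-1.42 to -1.15) in light polysomes. Of all genes, 2.49% were at least 2-fold lower in the light pair.

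In heavy polysomes the counting intervals of both receptors included 0, at -0.37 to 0.01 for FAS and -0.12 to 0.04 for TNFRSF10B. In light polysomes TNFRSF10B stood at -0.61 (-0.69 to -0.53). ZMAT3 was higher at 1.04 (0.78 to 1.29) in heavy and 0.26 (0.10 to 0.41) in light polysomes, and 3.12% of all genes were at least 2-fold higher in the heavy pair. RRM2B was lower at -0.57 (-0.67 to -0.47) and -0.47 (-0.55 to -0.40). Of the 4 members with the miR-17 site, CDKN1A was lower and ZMAT3 higher in both fractions. The intervals of the others, FAS and TNFRSF10B, included 0 in heavy polysomes, and TNFRSF10B was lower in light ones. Of the 2 members with no site of any of the 16 families, GDF15 was lower and BAX higher. The part of the sites in these differences was not tested.

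**Figure D4:**
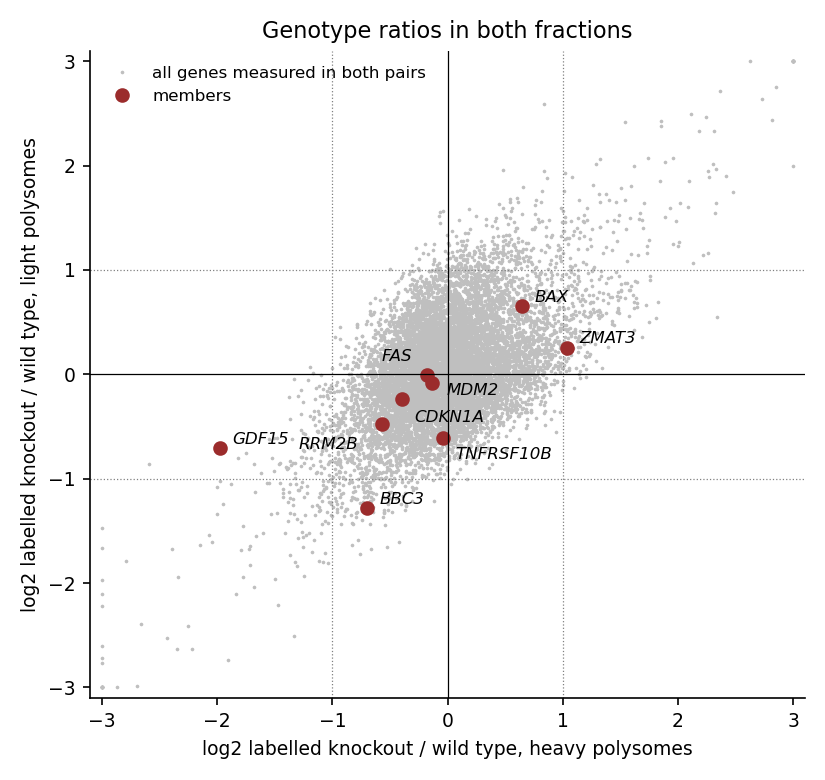
Log2 of labelled knockout over wild type in heavy (horizontal) and light (vertical) polysomes for all 10418 genes measured in both pairs (grey; values beyond 3 are drawn at the edge) and for the 9 genes (red); dotted lines mark 2-fold. GDF15, at -1.98 and -0.71, crosses the lower 2-fold line in heavy polysomes and BBC3 in light ones. ZMAT3, at 1.04 in heavy polysomes, crosses the upper line there, and no member crosses a line in both fractions.

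The change of the heavy to light ratio between the genotypes follows from the same 4 libraries. It was -1.27 (-1.33 to -1.21) for GDF15, a shift of 2.41-fold away from heavy polysomes in the labelled knockout. GDF15 was the 1 member past 2-fold, and 2.37% of 10834 genes that reached 50 counts in all 4 libraries shifted that far in that direction. Shifts toward heavy polysomes were 0.78 (0.48 to 1.08) for ZMAT3, 0.59 (0.37 to 0.81) for BBC3 and 0.57 (0.46 to 0.69) for TNFRSF10B. The shift of CDKN1A was -0.16 (-0.22 to -0.11) with TMM but ran from -0.24 to -0.02 across scalings, the latter with library totals. For MDM2, BAX, FAS and RRM2B the interval included 0, and for MDM2, BAX and RRM2B the sign changed with the scaling. The median of the absolute shift over all 13574 genes tested was 0.39. Protein-coding genes of like length were also less spread in the labelled knockout. For 500 to 1000 coding nucleotides the quartiles of the ratio were -1.01 and 0.23 in the wild type, against -0.88 and -0.06. For 1000 to 1500 they were -0.69 and 1.04, against -0.405 and 0.67. The part of this narrowing in the shifts of the members was not tested.

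By Euclidean distance over the 4 centred log2 levels, the genes most like CDKN1A among 9815 that reached 100 counts in all 4 libraries were IFT22 (distance 0.03), RSRC1 (0.05) and SIRT2 (0.05). Those most like GDF15 were IRF9 (0.35), ELF3 (0.47) and SLFN5 (0.49), all further away. With 4 libraries such a likeness is a description only.

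Other genes of the pathway, 114 in 10 lists, were examined in the same fits. The fit covered 107, with 43 calls for heavy and 27 for light polysomes and a median log2 ratio of 0.30. Of 18 proteins that control p53, 12 were called heavy, against 30.0% of all genes. Among them were the ubiquitin ligase HUWE1 at 2.26 and PRKDC, the catalytic subunit of DNA-dependent protein kinase, at 2.23. Their coding sequences are 13125 and 12387 nucleotides long, and genes above 5000 nucleotides had medians of 1.06 (wild type) and 0.92 (labelled knockout); the part of length in the list's count was not tested. MDM4, the partner of MDM2, was called toward light polysomes like MDM2 itself (-1.13), as was the ligase RCHY1 (-0.70). The median of the list was 0.90.

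Further p53 targets had calls in both directions, to be read against 30.0% heavy and 29.3% light over all genes. Of 12 targets that arrest the cell cycle, 4 were called heavy, with SFN (14-3-3 sigma) at 1.10 and TRIM22 at 1.29 on no more than 20 counts in any library, and 4 light, with PTP4A1 at -1.62 and GADD45A at -0.76. Of 14 targets that promote or modulate cell death, 4 were called heavy and 5 light. TNFRSF10D, a decoy receptor for TRAIL, stood at 1.27 and AIFM2 at 1.15, against -2.17 for RPS27L and -1.82 for PMAIP1 (NOXA), a very small BH3-only protein. Of 6 repair targets, 3 were called heavy, with the damage sensor XPC at 2.0 and the polymerase POLH at 1.20, and 1 light, REV3L at -0.66. Metabolic and autophagy targets were called heavy in 3 of 9, with FDXR at 1.76 and ALDH4A1 at 1.24, and light in 3, with CPT1C at -1.06 and PANK1 at -0.75. Medians of these lists were 0.19, 0.23, 0.62 and -0.19.

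The partners of the members gave contrasting values, again to be read against 30.0% heavy and 29.3% light over all genes. Of 17 BCL2 family members and caspases, 9 were called toward light polysomes like BAX and BBC3, with HRK at -1.75 and CYCS at -1.40. MCL1 alone was called toward heavy ones (1.32), and the median of the list was -0.66. HRK and CYCS have 276 and 318 coding nucleotides, and genes of up to 500 nucleotides had a median of -1.24 in each gradient. The part of length in the count of this list was not tested. In death receptor signalling 4 of 9 were called heavy, with the kinase RIPK1 at 1.68 and CASP8, the initiator caspase of FAS, at 1.36. None was called light by edgeR or DESeq2; at an unadjusted p under 0.05 in edgeR there was 1, the caspase inhibitor CFLAR at -0.52, which was called when library totals replaced TMM. The other subunits of ribonucleotide reductase, RRM1 at 2.03 and RRM2 at 1.32, were called toward heavy polysomes, where RRM2B was called toward light ones. Among 11 partners and relatives of p21, CCND1 (1.47) and CDKN1C (1.40) were called heavy with CCNE2 (1.10), and CDK4 (-0.90) and CCNE1 (-0.74) light. Of 14 cell cycle genes that p53 is known to repress through p21, 9 were called heavy, with PLK1 at 2.16 and CDC20 at 2.12, and BIRC5 light at -1.03 (median 1.20). CYCS and PTP4A1 have near-identical processed copies in the genome, so their counts are uncertain.

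**Figure D5:**
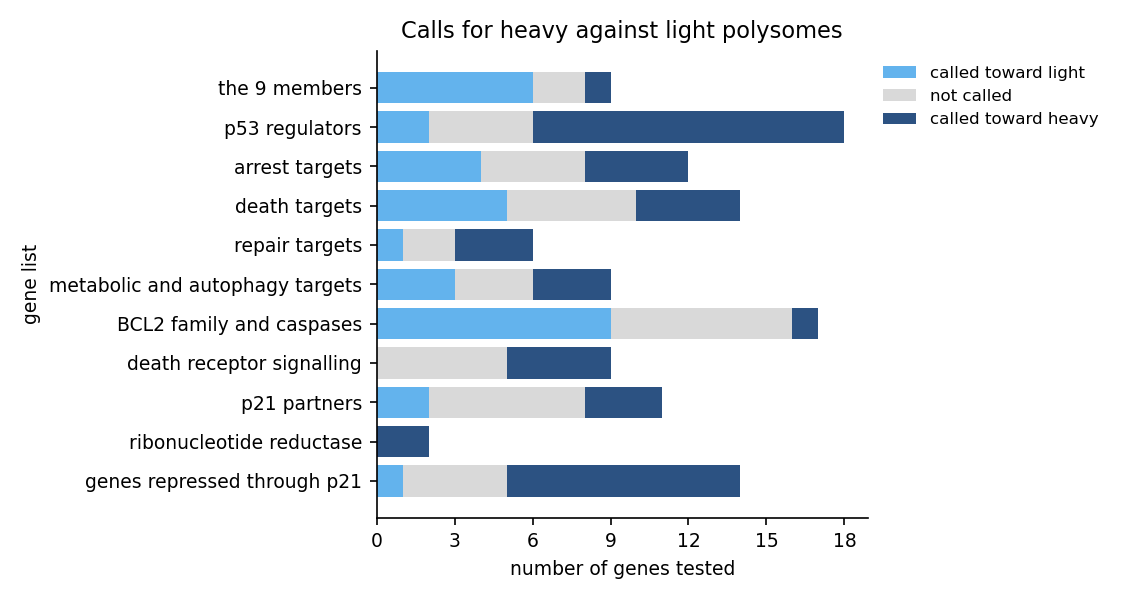
Number of genes called toward light polysomes, not called, and called toward heavy polysomes for the 9 members and for 10 lists of pathway genes. The bars show 6 of 9 members called light and 12 of 18 regulators of p53 called heavy. Over all genes tested 29.3% were called light and 30.0% heavy. The lists differ in coding length, and its part in these counts was not tested.

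Between the genotypes, 2 of 101 measured list genes were at least 2-fold higher in the labelled knockout in both fractions and 2 at least 2-fold lower, near the all-gene shares of 1.17% and 1.20%. CDK6, a kinase of the G1 phase, was higher at log2 ratios of 2.31 in heavy and 2.33 in light polysomes, where wild type counts of 885 and 965 stood beside 4208 and 4049. PLK2, a polo-like kinase and p53 target, was higher at 1.59 and 1.15. SESN2, a stress-induced regulator of mTORC1, was lower at -1.47 and -2.21, and GADD45A, a p53 target that binds PCNA, at -1.36 and -1.05. The list medians were -0.01 in heavy and 0.09 in light polysomes. Genes repressed through p21 had medians of 0.15 and 0.58, and 7 of 14 lay above 0 in both fractions, against 30.8% of all 10418 genes.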

How the data were processed

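RNA from heavy and light polysomes of 2 HCT116 gradients was sequenced, 1 library per group. The authors deposited whole-number read counts per gene symbol. CASAVA, STAR and HTSeq and the build hg19 are named per the submitters' processing notes; their versions, the annotation and the strandedness were not given in the sources used here. No column was left unused. Counts were fitted with edgeR 4.0.16 in R 4.3.3 (TMM, filterByExpr, gradient as a block, SE from the F statistic), and with DESeq2 1.42.0 as an alternative; the edgeR fit was tested on simulated data. Genotype ratios used TMM-scaled CPM with a prior count of 2 and no test; intervals cover counting error only, since PCR copies cannot be recognised. Positions, coding lengths and 3′ UTRs came from GENCODE 44 (GRCh38), matched by symbol for 24427 rows (1392 through older symbols). Alternatives were other scalings, filters, prior counts, folds and each gradient alone. Members, lists and the rule for named genes (in each list, the 2 largest called ratios in each direction and every gene 2-fold in both fractions) were chosen with earlier results of these data known. CCNE2 and CFLAR fall outside that rule and were named after their values were seen. Python 3.11.15 was used for tables and figures.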

Additional observations from a re-analysis of the deposited data

Results flagged for a closer look

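TNFRSF10B lay on opposite sides of 0 in the gradients. Its log2 heavy to light ratio was -0.38 in the wild type (95% counting interval -0.46 to -0.31) and 0.19 in the labelled knockout (0.10 to 0.28). Across scalings the wild type value ran from -0.69 to -0.31. The labelled knockout value ran from 0.03 to 0.19, so it came close to 0 at its lowest. With 1 gradient per genotype the difference between the genotypes was not tested.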

How the results depend on the processing

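GDF15 stayed called toward heavy polysomes under each of the 6 other scalings, filters and tests, and the number of members called toward light polysomes was 5 to 7 except without the gradient block, where it was 3. No replicate block also left 15 of the other pathway genes called light instead of 27, and 2183 of all 13574 genes instead of 3977. The cause was not tested. With the labelled knockout gradient alone the log2 ratio of TNFRSF10B was 0.19 instead of -0.10, and with the wild type gradient alone it was -0.38. With a fold of 1.5 in place of 2, 1 member was higher and 2 were lower in both fractions instead of 0 and 0. At that fold 6 other pathway genes were higher instead of 2. The share of all genes past 1.5-fold was not computed, so these counts have no background to be read against. The fit reported is the paired one, with the heavy and light library of a gradient as a pair. Totals of 17457116 to 20933675 counts leave counting intervals of the members narrow, so the single library per group limits the genotype values.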
